A study of Macaca fascicularis with 64 samples.

Results

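Kidney of newborn cynomolgus monkeys (Macaca fascicularis) was compared between animals carrying a SIRT6 mutation and wild-type animals. The members are the 8 kidney libraries of the newborn table among 64 libraries in the whole series, chosen by their labels alone. The mutant animals, KO2 and KO3, are labelled as SIRT6 mutant and given as SIRT6-/- in the series' design, and the wild-type animals are WT2 and WT3. Each animal has 2 kidney libraries, which were read as repeats of 1 animal, so each comparison has n = 2 KO and 2 WT animals. The sources used here do not give the kind of mutation, the sex or the exact age, nor whether the repeats are separate pieces of tissue. No other agent or allele is named for either group. The question set by the series' title is which genes differ in animals that lack SIRT6 and are delayed in development.

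The kidney filters plasma in glomeruli, where podocytes wrap the capillaries, and then recovers most of the filtrate along the tubule. The proximal tubule takes back glucose, amino acids, phosphate and filtered protein, and makes glucose and active vitamin D. It runs mainly on fatty acid oxidation in mitochondria. The loop of Henle, the distal convoluted tubule and the collecting duct set salt, water, acid and calcium balance. SIRT6 is a nuclear deacylase of the sirtuin family that removes acetyl groups from histone H3. In primates nephrons are laid down mostly before birth, and tubule transport matures further after it.

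Levels are FPKM, fragments scaled by the authors for gene length and mapped fragments. A log2 change is KO minus WT on log2(FPKM + 1) with each animal as the mean of its 2 libraries, and its standard error (SE) and adjusted p come from limma's moderated test over all 13937 genes tested, those with a mean FPKM of 1 or more. A gene is called where its Benjamini-Hochberg adjusted p is under 0.05. The n is 2 animals per genotype throughout, and with 2 against 2 the smallest p of an exact permutation test (two-sided) is 0.33. In bulk tissue, fewer cells of a type and less RNA per cell cannot be told apart.

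Libraries of 1 animal correlated at 0.9902 to 0.9935 (Pearson's r over genes), the KO animals with each other at 0.9296 to 0.9327, the WT animals with each other at 0.9538 to 0.9558 and KO with WT at 0.8659 to 0.8935. These are values across genes, which are not independent replicates. Among the kidney libraries those of KO2 stood apart in their heat shock genes. The summed level of these genes was 15610.2 and 16158 FPKM in KO2 and 948 and 974 FPKM in KO3, against 769 to 1355 FPKM in the WT libraries. A rise was not particular to kidney, as the list's median KO change was 1.23 there and 2.10 over the other 6 newborn tissues. The part of the heat shock level in any result was not tested. Kidney-defining genes were present in every library. The loop of Henle gene UMOD held 122 and 113 FPKM in the KO2 libraries and 271 and 272 in the KO3 libraries, against 2728 and 2715 in the WT2 libraries and 2402 and 2479 in the WT3 libraries, and the collecting duct water channel AQP2 held 62.6 and 60.9 FPKM in the KO2 libraries and 46.5 and 46.8 in the KO3 libraries, against 236 and 236 in the WT2 libraries and 381 and 373 in the WT3 libraries. The summed adrenal genes reached 9.85 to 12.96 FPKM in the KO libraries, against 5.24 to 7.32 FPKM in the WT libraries, and skeletal muscle genes 7.81 to 14.2 FPKM in the KO libraries, against 15.8 to 22.4 FPKM in the WT libraries.

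SIRT6 itself held 4.89 and 5.59 FPKM in the KO2 libraries and 11.4 and 12.3 in the KO3 libraries, against 11.4 and 10.6 in the WT2 libraries and 10.9 and 12.2 in the WT3 libraries (log2 change -0.46, SE 0.38, adjusted p = 0.54). KO2 was below every other animal, while KO3 overlapped the WT libraries. The FPKM of a whole gene can miss a frameshift or small deletion, and the genotypes rest on the labels. None of the 7 sirtuin genes was called by limma (0 at an unadjusted p under 0.05). Without KO2 the log2 change of SIRT6 was 0.06, with adjusted p = 0.94.

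In KO kidney 806 genes were called, 5.78% of the genes tested. Of these, 142 (1.02%) were higher and 664 (4.76%) lower in KO. The lowest changes among named genes included enzymes and transporters of the mature tubule, the heme-degrading enzyme HMOX1 and adult beta globin. The highest included SHISA3 and SOST, inhibitors of Wnt signalling, and the growth factor MDK. The median log2 change of all genes was -0.04, and 0.06 after quantile normalisation, when 247 were higher and 538 lower. The higher share was thus 31.5% of calls after quantile normalisation, against 17.6% before. Calls higher and lower numbered 220 and 565 without KO2, 300 and 1321 without KO3, 13 and 169 without WT2, and 22 and 165 without WT3. With no filter on level, limma called 0 of 23705 genes, while 3656 had an unadjusted p under 0.05.

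**Figure D1:**
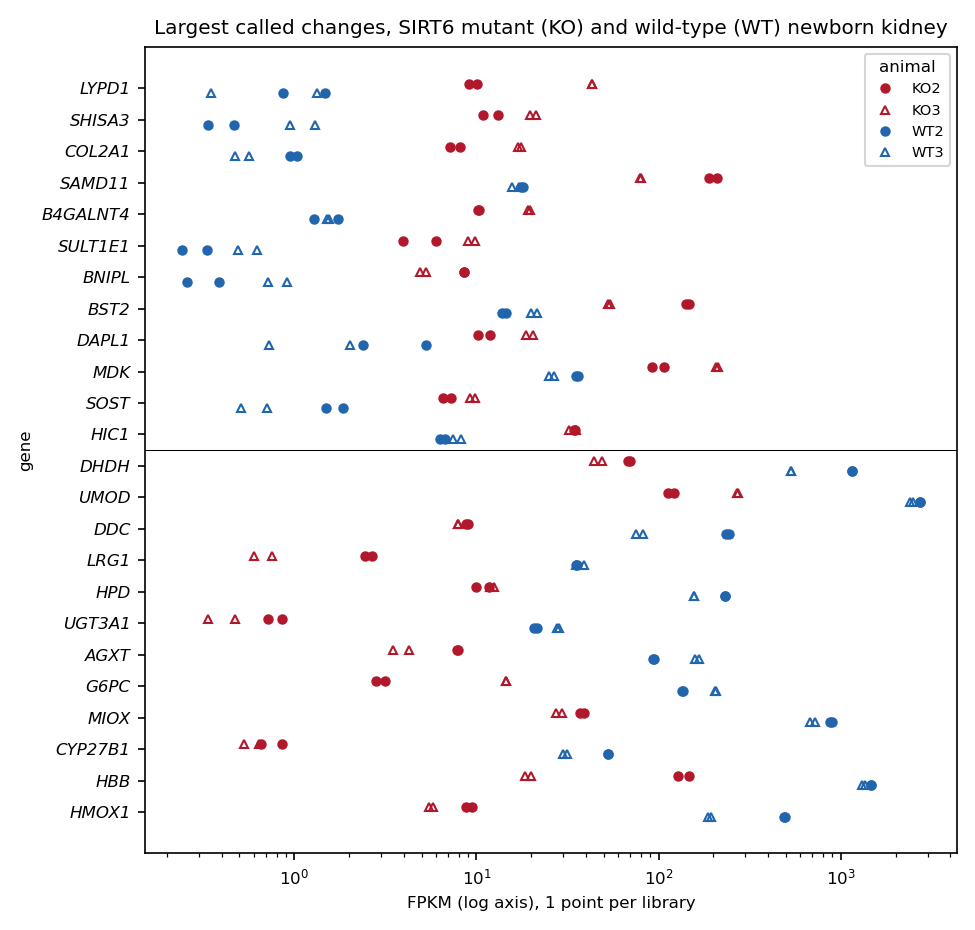
FPKM on a log axis of the 12 highest and the 12 lowest log2 changes among called genes, 1 point per library, with KO in red and WT in blue. In each gene all 4 KO libraries lie on 1 side of all 4 WT libraries, a condition of the rule that chose them, and HBB, SAMD11, LYPD1 and G6PC show a gap between KO2 and KO3.

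HMOX1, which breaks down heme and is induced by heme and oxidative stress, had the lowest log2 change of the genes named. It held 8.80 and 9.44 FPKM in the KO2 libraries and 5.47 and 5.74 in the KO3 libraries, against 492 and 489.6 in the WT2 libraries and 195 and 186 in the WT3 libraries (log2 change -5.23, SE 0.44, adjusted p = 0.0012). The beta globin HBB, the adult chain of hemoglobin, held 128 and 146 FPKM in the KO2 libraries and 19.9 and 18.4 in the KO3 libraries, against 1473 and 1474 in the WT2 libraries and 1357 and 1307 in the WT3 libraries (log2 change -4.73, SE 0.72, adjusted p = 0.0097). KO3 was lower than KO2, and both were below WT. CYP27B1, the kidney enzyme that makes active vitamin D, held 0.661 and 0.853 FPKM in the KO2 libraries and 0.638 and 0.532 in the KO3 libraries, against 52.5 and 52.8 in the WT2 libraries and 31.3 and 29.9 in the WT3 libraries (log2 change -4.63, SE 0.34, adjusted p = 0.0012). Every KO library was under 1 FPKM and every WT library was near 30 or above. LRG1, a secreted leucine-rich glycoprotein, was at 2.55 FPKM in KO2 and 0.678 FPKM in KO3, against 35.4 in WT2 and 37.1 in WT3 (log2 change -3.93, SE 0.39, adjusted p = 0.0021). UGT3A1, a UDP glycosyltransferase, was at 0.784 FPKM in KO2 and 0.403 FPKM in KO3, against 21.1 in WT2 and 27.95 in WT3 (log2 change -4.001, SE 0.32, adjusted p = 0.0012). DHDH, a dihydrodiol dehydrogenase, was at 68.8 FPKM in KO2 and 46.8 FPKM in KO3, against 1157 in WT2 and 532 in WT3 (log2 change -3.77, SE 0.41, adjusted p = 0.0027). 

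Most proximal tubule genes tested fell. Of 42 transporters and endocytic receptors tested, 27 were called lower and 0 higher, with a median log2 change of -1.77, where 4.76% of all genes tested were called lower. The summed level of the list was 838 to 862 FPKM in the KO libraries, against 2811 to 3104 FPKM in the WT libraries. Of 36 proximal tubule enzymes, 22 were lower and 0 higher, with a median of -1.68. Their summed level was 2032 to 2128 FPKM in the KO libraries, against 6971 to 7839 FPKM in the WT libraries. The medians were -1.80 and -1.81 in KO2 and -1.73 and -1.68 in KO3, each against the WT mean. Transporters called lower numbered 26 without KO2, 28 without KO3, 13 without WT2 and 11 without WT3. Enzymes called lower numbered 23 without KO2, 24 without KO3, 11 without WT2 and 13 without WT3. Over the same libraries the summed stroma genes were 784 to 979 FPKM in the KO libraries, against 525 to 539 FPKM in the WT libraries, and the summed podocyte genes 1198 to 1220.2 FPKM in the KO libraries, against 847 to 959 FPKM in the WT libraries. The part of cell makeup in the tubule result was not tested.

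Among the transporters, SLC5A12, which carries lactate with sodium, held 3.91 and 3.44 FPKM in the KO2 libraries and 2.70 and 2.42 in the KO3 libraries, against 46.7 and 45.2 in the WT2 libraries and 52.9 and 56.8 in the WT3 libraries (log2 change -3.65, SE 0.30, adjusted p = 0.0012). SLC13A3, a dicarboxylate transporter of the basal membrane, held 16.97 and 17.3 FPKM in the KO2 libraries and 17.4 and 17.1 in the KO3 libraries, against 158 and 161 in the WT2 libraries and 160.3 and 163 in the WT3 libraries (log2 change -3.15, SE 0.26, adjusted p = 0.0012). In both genes the KO animals were close to each other and far under WT. SLC7A8, the light chain of a neutral amino acid exchanger, was at 8.75 FPKM in KO2 and 10.4 FPKM in KO3, against 94.7 in WT2 and 127 in WT3 (log2 change -3.39, SE 0.29, adjusted p = 0.0012). SLC6A18, a neutral amino acid transporter, was at 6.57 FPKM in KO2 and 2.44 FPKM in KO3, against 71.05 in WT2 and 63.2 in WT3 (log2 change -3.74, SE 0.39, adjusted p = 0.0023). The receptor for filtered protein LRP2 (megalin) was at 38.2 FPKM in KO2 and 47.8 FPKM in KO3, against 38.8 in WT2 and 69.8 in WT3 (log2 change -0.28, SE 0.34, adjusted p = 0.69), which did not pass. The list ran from -3.74 to -0.0044 on the log2 scale. 

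Among the enzymes, MIOX, which opens the inositol ring and is made almost only in proximal tubule, held 36.96 and 39.2 FPKM in the KO2 libraries and 29.5 and 27.2 in the KO3 libraries, against 899 and 872 in the WT2 libraries and 679 and 719 in the WT3 libraries (log2 change -4.54, SE 0.30, adjusted p = 0.0012). The KO mean was 4.19% of the WT mean. AGXT, which turns glyoxylate into glycine and is not in the proximal tubule list, was at 7.86 FPKM in KO2 and 3.87 FPKM in KO3, against 93.7 in WT2 and 163 in WT3 (log2 change -4.25, SE 0.39, adjusted p = 0.0016). HPD, of tyrosine breakdown, was at 10.8 FPKM in KO2 and 12.2 FPKM in KO3, against 231 in WT2 and 156 in WT3 (log2 change -3.94, SE 0.30, adjusted p = 0.0012). DDC, which makes dopamine from its precursor in the tubule, was at 8.86 FPKM in KO2 and 7.89 FPKM in KO3, against 239 in WT2 and 78.4 in WT3 (log2 change -3.88, SE 0.47, adjusted p = 0.0038), with WT2 above WT3. The arginine-making ASS1 was at 67.9 FPKM in KO2 and 57.5 FPKM in KO3, against 402 in WT2 and 463 in WT3 (log2 change -2.77, SE 0.28, adjusted p = 0.0023). UPB1, of pyrimidine breakdown, was at 9.53 FPKM in KO2 and 8.20 FPKM in KO3, against 75.9 in WT2 and 56.9 in WT3 (log2 change -2.76, SE 0.29, adjusted p = 0.0024). 

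Regulators of tubule genes were called in part. Of 20 transcription factors and cofactors, 4 were lower and 0 higher, with a median of -0.68. HNF4A, a nuclear receptor that drives proximal tubule genes, held 4.67 and 4.68 FPKM in the KO2 libraries and 17.7 and 15.7 in the KO3 libraries, against 36.2 and 37.4 in the WT2 libraries and 43.9 and 43.4 in the WT3 libraries (log2 change -2.03, SE 0.48, adjusted p = 0.044), with KO2 under KO3. The estrogen-related receptors ESRRA and ESRRB, which act on mitochondrial genes, changed by -1.50 (adjusted p = 0.019) and -1.80 (adjusted p = 0.039). PPARGC1A, their coactivator, was at 2.90 FPKM in KO2 and 5.46 FPKM in KO3, against 22.6 in WT2 and 15.6 in WT3 (log2 change -1.98, SE 0.35, adjusted p = 0.017). The number called lower was 2 without KO2, 6 without KO3, 0 without WT2 and 0 without WT3, and 2 with a pseudocount of 0.1. Leaving out single animals ended the calls of ESRRB and HNF4A without KO2 (0.052 to 0.085). Among WT animals this was so for PPARGC1A, ESRRA, ESRRB and HNF4A without WT2 (0.11 to 0.16) and PPARGC1A, ESRRA, ESRRB and HNF4A without WT3 (0.055 to 0.21). Beyond single animals, calls ended for HNF4A without KO3 library 2, after quantile normalisation or with eBayes without trend (0.054 to 0.064), and ESRRB and HNF4A with a pseudocount of 0.1 (0.051 to 0.052).

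**Figure D2:**
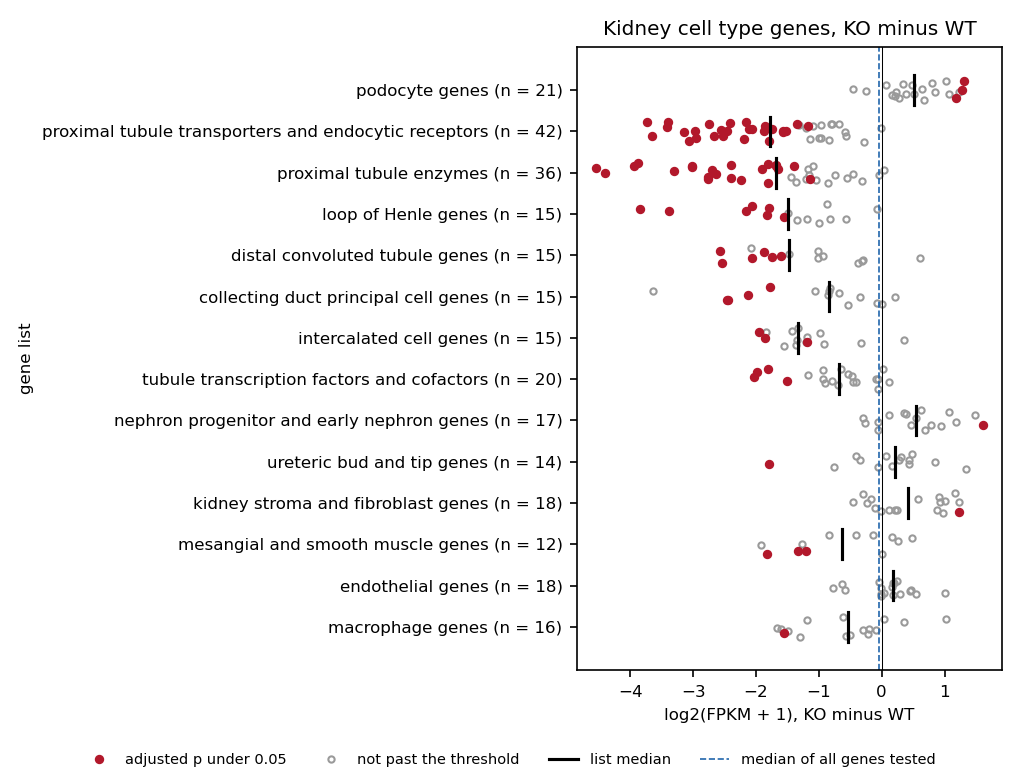
Log2 change, KO minus WT, of each tested gene in 14 kidney cell type lists, with called genes filled and the list median as a bar. The dashed line is the median of all genes, -0.04, and the list medians run from -1.77 in proximal tubule transporters to 0.54 in nephron progenitor genes.

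Past the proximal tubule, UMOD had the lowest log2 change in the 4 lists of later segments. It encodes uromodulin, the main protein of normal urine, and at the levels given above KO2 stood under KO3 and both under WT (log2 change -3.84, SE 0.42, adjusted p = 0.0027). Of 15 loop of Henle genes 7 were lower and 0 higher (median -1.49). EGF, a growth factor of the thick limb and distal tubule, held 0.838 and 0.959 FPKM in the KO2 libraries and 0.252 and 0.356 in the KO3 libraries, against 11.8 and 11.7 in the WT2 libraries and 20.8 and 19.9 in the WT3 libraries (log2 change -3.39, SE 0.38, adjusted p = 0.0028). PPP1R1A, an inhibitor of protein phosphatase, changed by -2.06 (adjusted p = 0.016). SLC12A1, the sodium, potassium and chloride cotransporter blocked by loop diuretics, was at 75.9 FPKM in KO2 and 171 FPKM in KO3, against 314 in WT2 and 329 in WT3 (log2 change -1.49, SE 0.39, adjusted p = 0.061) and did not pass. The loop list's median was -1.95 in KO2 and -0.91 in KO3. Loop genes called lower numbered 6 without KO2, 11 without KO3, 3 without WT2 and 2 without WT3, and 12 in 1 fit of all 7 newborn tissues. The calls that ended when 1 animal was left out, with the adjusted p then reached, were PPP1R1A without WT3 (0.12).

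Of 15 distal convoluted tubule genes 6 were lower and 0 higher (median -1.48). SLC12A3, the sodium chloride cotransporter blocked by thiazides, held 8.48 and 7.83 FPKM in the KO2 libraries and 16.1 and 15.6 in the KO3 libraries, against 69.8 and 67.6 in the WT2 libraries and 73.9 and 74.4 in the WT3 libraries (log2 change -2.54, SE 0.34, adjusted p = 0.0056). ATP1B1, the beta subunit of the sodium pump, was at 131 FPKM in KO2 and 140.4 FPKM in KO3, against 788 in WT2 and 835 in WT3 (log2 change -2.57, SE 0.29, adjusted p = 0.003). The potassium channel KCNJ16 and the calcium-binding CALB1 changed by -2.07 (adjusted p = 0.011) and -1.75 (adjusted p = 0.011). Distal tubule genes called lower numbered 5 without KO2, 11 without KO3, 3 without WT2 and 2 without WT3. Of 15 principal cell genes 4 were lower and 0 higher (median -0.83). AQP2 fell, at the levels given above (log2 change -2.45, SE 0.33, adjusted p = 0.0057). HSD11B2, which inactivates cortisol in aldosterone target cells, was at 206 FPKM in KO2 and 130.4 FPKM in KO3, against 627 in WT2 and 817 in WT3 (log2 change -2.12, SE 0.34, adjusted p = 0.012). SGK1, a kinase induced by aldosterone and glucocorticoids, and SCNN1A, the alpha subunit of the epithelial sodium channel, changed by -2.46 (adjusted p = 0.011) and -1.78 (adjusted p = 0.017). Principal cell genes called lower numbered 5 without KO2, 4 without KO3, 2 without WT2 and 1 without WT3. With 1 animal left out, the adjusted p passed 0.05 for SGK1, CALB1, HSD11B2 and SCNN1A without WT2 (0.07 to 0.14) and AQP2, KCNJ16, CALB1, HSD11B2 and SCNN1A without WT3 (0.054 to 0.12). The adjusted p also passed 0.05 for SGK1 and SCNN1A in 1 fit of all 7 newborn tissues (0.059 to 0.069).

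Of 15 genes of intercalated cells, which secrete acid or bicarbonate, 3 were lower and 0 higher (median -1.33). SLC26A4 (pendrin), a chloride and bicarbonate exchanger, held 0.167 and 0.0883 FPKM in the KO2 libraries and 0.132 and 0.269 in the KO3 libraries, against 5.33 and 5.89 in the WT2 libraries and 2.24 and 1.95 in the WT3 libraries (log2 change -1.96, SE 0.42, adjusted p = 0.031). SLC26A7, a related anion exchanger, was at 3.29 FPKM in KO2 and 4.47 FPKM in KO3, against 19.5 in WT2 and 14.003 in WT3 (log2 change -1.86, SE 0.32, adjusted p = 0.015), and the ammonia channel RHCG was at 14.8 FPKM in KO2 and 10.8 FPKM in KO3, against 30.8 in WT2 and 29.5 in WT3 (log2 change -1.19, SE 0.29, adjusted p = 0.049). The number called lower was 2 without KO2, 8 without KO3, 0 without WT2 and 2 without WT3, and 12 in 1 fit of all 7 newborn tissues. The call of SLC26A4 ended without KO2 and that of RHCG without KO3. Those of SLC26A7 and RHCG ended without WT2 and also without WT3. SLC26A4 fell under the level filter without WT2 and was not tested then. The adjusted p reached in other settings is given in brackets. Calls also ended for RHCG without KO2 library 2, without KO3 library 2, without WT2 library 1, without WT3 library 2, after quantile normalisation, with a pseudocount of 0.1 or with eBayes without trend (0.051 to 0.1).

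Vitamin D and mineral genes overlap the tubule lists, and 6 of 15 were lower with 0 higher (median -0.85). Beside CYP27B1, the phosphate transporters SLC34A3 and SLC34A1 of the brush border fell. SLC34A3 was at 3.61 FPKM in KO2 and 1.81 FPKM in KO3, against 46.6 in WT2 and 29.5 in WT3 (log2 change -3.42, SE 0.36, adjusted p = 0.0024), and SLC34A1 at 29.1 FPKM in KO2 and 37.8 FPKM in KO3, against 141 in WT2 and 172 in WT3 (log2 change -2.19, SE 0.29, adjusted p = 0.0055). The other mineral genes ran up to 0.44 on the log2 scale. Mineral genes called lower numbered 6 without KO2, 6 without KO3, 3 without WT2 and 2 without WT3. Leaving out single animals ended the calls of SLC34A1 without WT3 (0.054).

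Of 17 angiotensin and vasoactive genes 4 were lower and 0 higher (median -0.0010). AGT, the precursor of angiotensin, held 12.7 and 13.8 FPKM in the KO2 libraries and 12.6 and 11.8 in the KO3 libraries, against 79.8 and 79.8 in the WT2 libraries and 88.7 and 95.7 in the WT3 libraries (log2 change -2.66, SE 0.27, adjusted p = 0.0023). Kallikrein KLK1, which frees kinins, was at 0.305 FPKM in KO2 and 0.429 FPKM in KO3, against 4.97 in WT2 and 3.78 in WT3 (log2 change -1.98, SE 0.33, adjusted p = 0.014), and its substrate kininogen KNG1 at 8.999 FPKM in KO2 and 20.9 FPKM in KO3, against 66.7 in WT2 and 47.1 in WT3 (log2 change -1.95, SE 0.40, adjusted p = 0.025). NPR3, the clearance receptor of natriuretic peptides, was at 9.21 FPKM in KO2 and 10.98 FPKM in KO3, against 27.5 in WT2 and 40.7 in WT3 (log2 change -1.64, SE 0.31, adjusted p = 0.019). Erythropoietin (EPO) held 1.10 and 1.40 FPKM in the KO2 libraries and 70.2 and 74.5 in the KO3 libraries, against 1.44 and 1.68 in the WT2 libraries and 0.151 and 0.137 in the WT3 libraries, high in KO3 alone, and was not called (log2 change 2.91, SE 1.27, adjusted p = 0.23). Vasoactive genes called lower numbered 5 without KO2, 4 without KO3, 1 without WT2 and 1 without WT3. The calls that ended when 1 animal was left out, with the adjusted p then reached, were KLK1, NPR3 and KNG1 without WT2 (0.066 to 0.18) and KLK1, NPR3 and KNG1 without WT3 (0.065 to 0.16). Other settings ended the calls of NPR3 in 1 fit of all 7 newborn tissues (0.1), and KLK1 with libraries correlated within an animal (0.14).

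No podocyte gene was called lower. Of 21 tested, 3 were higher, where 1.02% of all genes were, and 0 lower. The estimate was above 0 in 19 of them, against 6517 of all 13937 genes, and the median was 0.52. FOXC2, a forkhead factor of podocytes and vessels, held 22.7 and 24.2 FPKM in the KO2 libraries and 16.7 and 18.8 in the KO3 libraries, against 6.63 and 7.48 in the WT2 libraries and 7.77 and 8.61 in the WT3 libraries and was among those that rose (log2 change 1.32, SE 0.30, adjusted p = 0.037), as was the intermediate filament nestin (NES), at 40.1 FPKM in KO2 and 30.1 FPKM in KO3, against 15.5 in WT2 and 14.1 in WT3 (log2 change 1.18, SE 0.29, adjusted p = 0.049). WT1, the defining podocyte factor, was at 78.6 FPKM in KO2 and 62.02 FPKM in KO3, against 42.96 in WT2 and 24.6 in WT3 (log2 change 1.08, SE 0.33, adjusted p = 0.1), and did not pass. The number called higher was 1 without KO2, 4 without KO3, 0 without WT2 and 0 without WT3, and 4 after quantile normalisation. With 1 animal left out, the adjusted p passed 0.05 for FOXC2 and NES without KO2 (0.093 to 0.11). It also passed for FOXC2 and NES without WT2 (0.24 to 0.25) and FOXC2 and NES without WT3 (0.16 to 0.26). The adjusted p also passed 0.05 for NES without KO2 library 2, without KO3 library 2, without WT2 library 1, without WT3 library 2, with a pseudocount of 0.1, in 1 fit of all 7 newborn tissues or with eBayes without trend (0.051 to 0.31).

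Of 17 nephron progenitor and early nephron genes 1 was higher, LEF1, where 1.02% of all genes were, and 0 were lower (median 0.54). LEF1, a transcription factor through which Wnt signals act, held 15.3 and 17.96 FPKM in the KO2 libraries and 9.36 and 8.76 in the KO3 libraries, against 3.51 and 3.05 in the WT2 libraries and 3.91 and 3.03 in the WT3 libraries (log2 change 1.61, SE 0.35, adjusted p = 0.034). The retinoic acid carrier CRABP2 was at 16.7 FPKM in KO2 and 28.7 FPKM in KO3, against 5.18 in WT2 and 9.74 in WT3 (log2 change 1.49, SE 0.38, adjusted p = 0.056), the Notch ligand DLL1 at 11.3 FPKM in KO2 and 18.4 FPKM in KO3, against 7.11 in WT2 and 4.64 in WT3 (log2 change 1.19, SE 0.35, adjusted p = 0.087) and the early nephron factor LHX1 at 15.6 FPKM in KO2 and 26.5 FPKM in KO3, against 10.3 in WT2 and 9.93 in WT3 (log2 change 0.95, SE 0.32, adjusted p = 0.13), none of them called. The mean KO change in the other 6 newborn tissues was 1.47 for CRABP2, 0.78 for DLL1, 0.50 for LEF1 and 0.040 for LHX1. The KO animals differed in this list, with a median of 0.0039 in KO2 and 0.96 in KO3. The number called higher was 4 without KO2, 1 without KO3, 0 without WT2 and 0 without WT3. Cell cycle genes split the same way, with a median of -0.47 in KO2 and 0.93 in KO3, and 0 of 26 called (2 at an unadjusted p under 0.05). The call of LEF1 ended without KO2, without WT2 and without WT3. It also ended after quantile normalisation or in 1 fit of all 7 newborn tissues (adjusted p = 0.051 to 0.061).

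**Figure D3:**
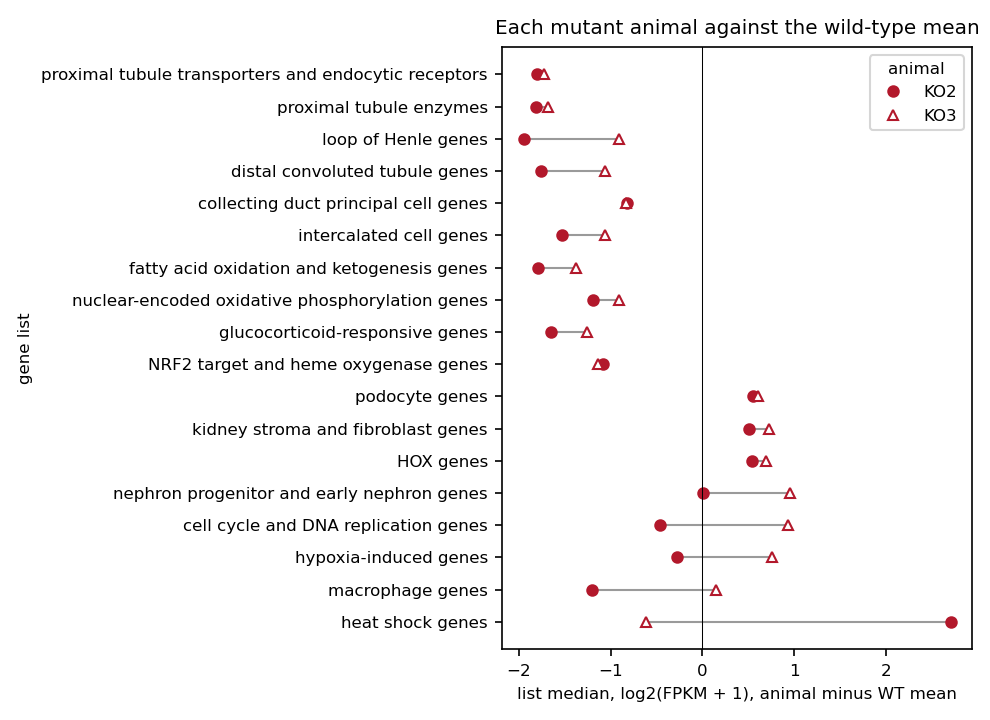
Median log2 difference of 18 gene lists in KO2 (filled circle) and in KO3 (open triangle) from the mean of WT2 and WT3. Tubule, fatty acid and mitochondrial lists lie below 0 in both animals, while progenitor, cell cycle, hypoxia, macrophage and heat shock lists differ between KO2 and KO3.

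Stroma and matrix genes had median changes of 0.41 and 0.41, with 1 of 18 and 0 of 26 called higher and none lower. Of all genes tested, 1.02% were called higher and 4.76% lower. Of the matrix genes 9 had an unadjusted p under 0.05. After quantile normalisation 6 stroma and 7 matrix genes were higher. FBLN1, a fibulin of the fibroblast matrix, was at 49.5 FPKM in KO2 and 46.8 FPKM in KO3, against 19.2 in WT2 and 20.5 in WT3 (log2 change 1.24, SE 0.27, adjusted p = 0.032). COL1A1, the alpha chain of type I collagen, was at 197 FPKM in KO2 and 205 FPKM in KO3, against 77.9 in WT2 and 102 in WT3 and did not pass (log2 change 1.16, SE 0.29, adjusted p = 0.0504). Stroma genes called higher numbered 1 without KO2, 2 without KO3, 0 without WT2 and 0 without WT3, and matrix genes 2 without KO2, 1 without KO3, 0 without WT2 and 0 without WT3, with 1 matrix gene lower without KO3. The median of mesangial and smooth muscle genes was below 0 (-0.63), and 3 of 12 were called lower and 0 higher. ACTA2, smooth muscle actin, held 21.1 and 23.4 FPKM in the KO2 libraries and 22.7 and 23.1 in the KO3 libraries, against 107 and 109.9 in the WT2 libraries and 62.9 and 63.7 in the WT3 libraries (log2 change -1.83, SE 0.32, adjusted p = 0.016). The smooth muscle myosin MYH11 and the actin-binding TAGLN changed by -1.33 (adjusted p = 0.045) and -1.20 (adjusted p = 0.046). Smooth muscle list calls numbered 4 without KO2, 3 without KO3, 0 without WT2 and 1 without WT3, and 1 in 1 fit of all 7 newborn tissues. None of 18 endothelial genes was called (1 at an unadjusted p under 0.05, median 0.17). Leaving out single animals ended the calls of FBLN1 and MYH11 without KO2 (0.053 to 0.09). Among WT animals this was so for ACTA2, FBLN1, MYH11 and TAGLN without WT2 (0.15 to 0.38) and FBLN1, MYH11 and TAGLN without WT3 (0.18 to 0.19). Beyond single animals, calls ended for TAGLN without KO2 library 2, without KO3 library 2, without WT3 library 2, after quantile normalisation or with eBayes without trend (0.051 to 0.15), and ACTA2, FBLN1, MYH11 and TAGLN in 1 fit of all 7 newborn tissues (0.12 to 0.49).

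Of the genes with the highest log2 changes, LYPD1, SHISA3, COL2A1, B4GALNT4, SULT1E1, BNIPL and SOST were under 2 FPKM in every WT library. LYPD1, a membrane-anchored protein of the LY6 family, held 9.12 and 10.1 FPKM in the KO2 libraries and 42.96 and 43.1 in the KO3 libraries, against 1.47 and 0.866 in the WT2 libraries and 0.348 and 1.34 in the WT3 libraries (log2 change 3.47, SE 0.58, adjusted p = 0.013). KO3 was far above KO2. SHISA3, an inhibitor of Wnt and FGF receptors, held 13.1 and 10.9 FPKM in the KO2 libraries and 19.6 and 21.3 in the KO3 libraries, against 0.469 and 0.335 in the WT2 libraries and 0.952 and 1.30 in the WT3 libraries (log2 change 3.28, SE 0.38, adjusted p = 0.0033). COL2A1, the cartilage collagen, was at 7.67 FPKM in KO2 and 17.2 FPKM in KO3, against 0.996 in WT2 and 0.518 in WT3 (log2 change 2.85, SE 0.41, adjusted p = 0.008). SAMD11, a nuclear protein with a sterile alpha motif, held 209 and 188 FPKM in the KO2 libraries and 80.1 and 79.6 in the KO3 libraries, against 17.99 and 17.6 in the WT2 libraries and 15.6 and 17.2 in the WT3 libraries (log2 change 2.81, SE 0.41, adjusted p = 0.0084), with KO2 above KO3. B4GALNT4, a glycosyltransferase, SULT1E1, an estrogen sulfotransferase, and BNIPL changed by 2.59 (adjusted p = 0.0068), 2.47 (adjusted p = 0.0099) and 2.30 (adjusted p = 0.012). DAPL1 changed by 2.27 (adjusted p = 0.018), and SOST, a secreted Wnt inhibitor better known from bone, by 2.14 (adjusted p = 0.015). BST2 (tetherin), an antiviral membrane protein, was at 144 FPKM in KO2 and 53.2 FPKM in KO3, against 14.2 in WT2 and 20.6 in WT3 (log2 change 2.29, SE 0.45, adjusted p = 0.022). MDK (midkine), a heparin-binding growth factor of embryonic kidney, held 91.8 and 108 FPKM in the KO2 libraries and 207 and 212 in the KO3 libraries, against 35.9 and 35.3 in the WT2 libraries and 26.7 and 24.9 in the WT3 libraries (log2 change 2.21, SE 0.38, adjusted p = 0.015). HIC1, a zinc finger repressor of transcription, was at 34.6 FPKM in KO2 and 33.7 FPKM in KO3, against 6.52 in WT2 and 7.80 in WT3 (log2 change 2.11, SE 0.28, adjusted p = 0.0056). In the mean of the other 6 tissues BNIPL, MDK, SAMD11, HIC1, SULT1E1 and BST2 changed by 1.73, 1.63, 1.21, 1.19, 1.13 and 1.12. The values there were 0.67 for B4GALNT4, 0.63 for COL2A1, 0.39 for SHISA3, 0.13 for DAPL1, 0.069 for SOST and -0.050 for LYPD1. The calls that ended when 1 animal was left out, with the adjusted p then reached, were HIC1, SULT1E1, BNIPL, LYPD1, MDK and BST2 without WT2 (0.054 to 0.15) and LYPD1, MDK, SOST, DAPL1 and BST2 without WT3 (0.055 to 0.11). Other settings ended the calls of COL2A1, MDK and BST2 in 1 fit of all 7 newborn tissues (0.054 to 0.12), and DAPL1 with libraries correlated within an animal (0.16).

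In the Wnt and Notch list 4 of 23 genes were higher and 1 was lower, where 1.02% of all genes were called higher and 4.76% lower. Beside SHISA3 these were NOTUM, a secreted enzyme that inactivates Wnt, at 6.99 FPKM in KO2 and 13.1 FPKM in KO3, against 1.02 in WT2 and 3.06 in WT3 (log2 change 1.89, SE 0.43, adjusted p = 0.04), LFNG, a glycosyltransferase acting on Notch, at 28.4 FPKM in KO2 and 28.2 FPKM in KO3, against 7.92 in WT2 and 10.8 in WT3 (log2 change 1.52, SE 0.29, adjusted p = 0.02), and HEYL, a Notch target, at 19.2 FPKM in KO2 and 18.3 FPKM in KO3, against 3.42 in WT2 and 6.53 in WT3 (log2 change 1.78, SE 0.34, adjusted p = 0.02). SFRP2, a secreted Wnt-binding protein, was the gene that fell, at 2.26 FPKM in KO2 and 6.30 FPKM in KO3, against 20.9 in WT2 and 21.8 in WT3 (log2 change -2.20, SE 0.40, adjusted p = 0.017). The members called thus included inhibitors of Wnt in both directions, SFRP2 alone being lower. The share called lower, 4.35%, was close to that of all genes. The number called higher was 4 without KO2, 4 without KO3, 1 without WT2 and 2 without WT3, and lower 1 without KO2, 1 without KO3, 0 without WT2 and 0 without WT3. With 1 animal left out, the adjusted p passed 0.05 for NOTUM without KO3 (0.073). It also passed for SFRP2, HEYL, LFNG and NOTUM without WT2 (0.1 to 0.26) and SFRP2, LFNG and NOTUM without WT3 (0.054 to 0.094). The adjusted p also passed 0.05 for NOTUM without WT3 library 2 or with a mean of 5 FPKM or more (0.0503 to 0.06), and HEYL in 1 fit of all 7 newborn tissues (0.12).

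Among growth genes of the fetus calls went both ways, where 1.02% of all genes were called higher and 4.76% lower. IGF2, the fetal insulin-like growth factor, held 1011 and 999.5 FPKM in the KO2 libraries and 1241 and 1276 in the KO3 libraries, against 399.6 and 408 in the WT2 libraries and 378 and 359.7 in the WT3 libraries (log2 change 1.54, SE 0.32, adjusted p = 0.026). Of 17 IGF and growth hormone genes 1 was higher, IGF2, and 3 were lower. These were the binding protein IGFBP5 at 30.9 FPKM in KO2 and 83.4 FPKM in KO3, against 156 in WT2 and 284 in WT3 (log2 change -2.03, SE 0.47, adjusted p = 0.043), IGFBP1 at 2.79 FPKM in KO2 and 2.62 FPKM in KO3, against 16.6 in WT2 and 7.34 in WT3 (log2 change -1.72, SE 0.39, adjusted p = 0.04), and PAPPA, a protease that cuts IGF-binding proteins, at 0.813 FPKM in KO2 and 1.57 FPKM in KO3, against 4.19 in WT2 and 11.003 in WT3 (log2 change -1.87, SE 0.44, adjusted p = 0.044). Of 17 imprinted genes 2 were higher, IGF2 and MEST, and 1 was lower, DLK1. The share called lower, 5.88%, was close to that of all genes. MEST was at 129 FPKM in KO2 and 189.5 FPKM in KO3, against 60.5 in WT2 and 64.2 in WT3 (log2 change 1.31, SE 0.30, adjusted p = 0.04), and DLK1, a membrane protein of the Notch ligand type, at 382 FPKM in KO2 and 392 FPKM in KO3, against 854 in WT2 and 1112 in WT3 (log2 change -1.33, SE 0.32, adjusted p = 0.046). Of 12 oncofetal regulators 2 were higher, HMGA2, a chromatin protein of embryonic cells, at 5.43 FPKM in KO2 and 9.53 FPKM in KO3, against 1.79 in WT2 and 1.22 in WT3 (log2 change 1.72, SE 0.36, adjusted p = 0.029), and CLDN6, a claudin of embryonic epithelium, at 5.48 FPKM in KO2 and 8.98 FPKM in KO3, against 1.44 in WT2 and 0.665 in WT3 (log2 change 1.99998, SE 0.37, adjusted p = 0.018). Of 16 claudins and cadherins 1 was called higher, again CLDN6, and 1 lower, a share close to that of all genes. The lower one was the kidney cadherin CDH16. It was at 125 FPKM in KO2 and 72.1 FPKM in KO3, against 286 in WT2 and 327 in WT3 (log2 change -1.68, SE 0.34, adjusted p = 0.024). Without each animal in turn, IGF genes called lower numbered 0 without KO2, 4 without KO3, 1 without WT2 and 1 without WT3, imprinted genes called higher 2 without KO2, 2 without KO3, 0 without WT2 and 0 without WT3, and oncofetal genes called higher 4 without KO2, 1 without KO3, 0 without WT2 and 0 without WT3. After quantile normalisation 1 IGF gene was lower and 4 oncofetal genes were higher. HOX genes had a median of 0.66 with 24 of 30 above 0 and 0 called (9 at an unadjusted p under 0.05), and 7 were called higher in 1 fit of all 7 newborn tissues. The calls of IGFBP1, IGFBP5 and PAPPA ended without KO2, and that of HMGA2 without KO3. Without WT2 calls ended for CLDN6, CDH16, IGF2, HMGA2, MEST, IGFBP1, IGFBP5 and DLK1. Without WT3 they ended for CLDN6, CDH16, IGF2, HMGA2, MEST, IGFBP5, PAPPA and DLK1. For other settings the adjusted p reached is in brackets. Calls also ended for HMGA2 without KO2 library 1 or with libraries correlated within an animal (0.051 to 0.072), DLK1 without KO2 library 2 (0.053), IGFBP5 and PAPPA without KO3 library 2 (0.051 to 0.052), CDH16, IGFBP1, IGFBP5 and DLK1 after quantile normalisation (0.057 to 0.088), CDH16, IGF2, MEST and DLK1 in 1 fit of all 7 newborn tissues (0.089 to 0.19), and MEST and IGFBP5 with eBayes without trend (0.054).

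Most genes of glucose production fell. Of 18 gluconeogenesis and ammonia-forming genes 12 were lower and 0 higher (median -1.56), with a summed level of 573 to 755 FPKM in the KO libraries, against 2054 to 2274 FPKM in the WT libraries. G6PC, glucose-6-phosphatase, which releases free glucose, held 2.82 and 3.16 FPKM in the KO2 libraries and 14.6 and 14.6 in the KO3 libraries, against 135 and 135 in the WT2 libraries and 206 and 205 in the WT3 libraries (log2 change -4.41, SE 0.56, adjusted p = 0.0049). PCK2, the mitochondrial phosphoenolpyruvate carboxykinase, was at 12.2 FPKM in KO2 and 20.4 FPKM in KO3, against 194 in WT2 and 167 in WT3 (log2 change -3.43, SE 0.32, adjusted p = 0.0016), and its cytosolic counterpart PCK1 was at 111 FPKM in KO2 and 125 FPKM in KO3, against 230.5 in WT2 and 403 in WT3 (log2 change -1.36, SE 0.34, adjusted p = 0.052), not past the threshold. Pyruvate carboxylase (PC) and fructose bisphosphatase (FBP1) changed by -2.25 (adjusted p = 0.0055) and -1.65 (adjusted p = 0.015). Gluconeogenesis genes called lower numbered 10 without KO2, 13 without KO3, 2 without WT2 and 3 without WT3, and 7 in 1 fit of all 7 newborn tissues. Leaving out single animals ended the calls of PC and FBP1 without WT2 (0.056 to 0.11) and FBP1 without WT3 (0.16).

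Of 25 fatty acid oxidation genes 15 were lower and 0 higher, with each estimate below 0 and a median of -1.51. ACSL1, which joins fatty acids to coenzyme A, held 7.38 and 7.84 FPKM in the KO2 libraries and 11.7 and 13.01 in the KO3 libraries, against 111 and 113 in the WT2 libraries and 132 and 130.3 in the WT3 libraries (log2 change -3.51, SE 0.31, adjusted p = 0.0013). EHHADH of the peroxisome was at 5.49 FPKM in KO2 and 7.17 FPKM in KO3, against 38.6 in WT2 and 56.8 in WT3 (log2 change -2.72, SE 0.31, adjusted p = 0.0033). CPT1A, which admits long chains to mitochondria, was at 7.49 FPKM in KO2 and 11.9 FPKM in KO3, against 38.9 in WT2 and 64.7 in WT3 (log2 change -2.29, SE 0.35, adjusted p = 0.0098), and the thiolase ACAA2 at 45.7 FPKM in KO2 and 63.2 FPKM in KO3, against 194 in WT2 and 192 in WT3 (log2 change -1.82, SE 0.29, adjusted p = 0.011). Fatty acid genes called lower numbered 13 without KO2, 19 without KO3, 4 without WT2 and 3 without WT3. The calls that ended when 1 animal was left out, with the adjusted p then reached, were ACAA2 without WT2 (0.1) and CPT1A and ACAA2 without WT3 (0.072 to 0.091).

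Of 72 nuclear genes of oxidative phosphorylation 28 were lower and 0 higher. Each estimate was below 0, from -1.95 to -0.34, with a median of -1.07. Among those called, the cytochrome oxidase subunit COX5A was at 25.7 FPKM in KO2 and 30.2 FPKM in KO3, against 101 in WT2 and 122 in WT3 (log2 change -1.95, SE 0.28, adjusted p = 0.0076), and COX8A at 267 FPKM in KO2 and 389 FPKM in KO3, against 1234 in WT2 and 1252 in WT3 (log2 change -1.95, SE 0.33, adjusted p = 0.014). ATP5G3, of the ATP synthase ring, and UQCRFS1, the iron-sulfur protein of the cytochrome bc complex, changed by -1.61 (adjusted p = 0.014) and -1.65 (adjusted p = 0.015). The count was 7 after quantile normalisation, and 18 without KO2, 50 without KO3, 0 without WT2 and 0 without WT3. Of 76 ribosomal protein genes 0 were called (1 at an unadjusted p under 0.05, median 0.14). With 1 animal left out, the adjusted p passed 0.05 for COX5A, COX8A, ATP5G3 and UQCRFS1 without WT2 (0.051 to 0.16) and COX5A, COX8A, ATP5G3 and UQCRFS1 without WT3 (0.072 to 0.15).

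**Figure D4:**
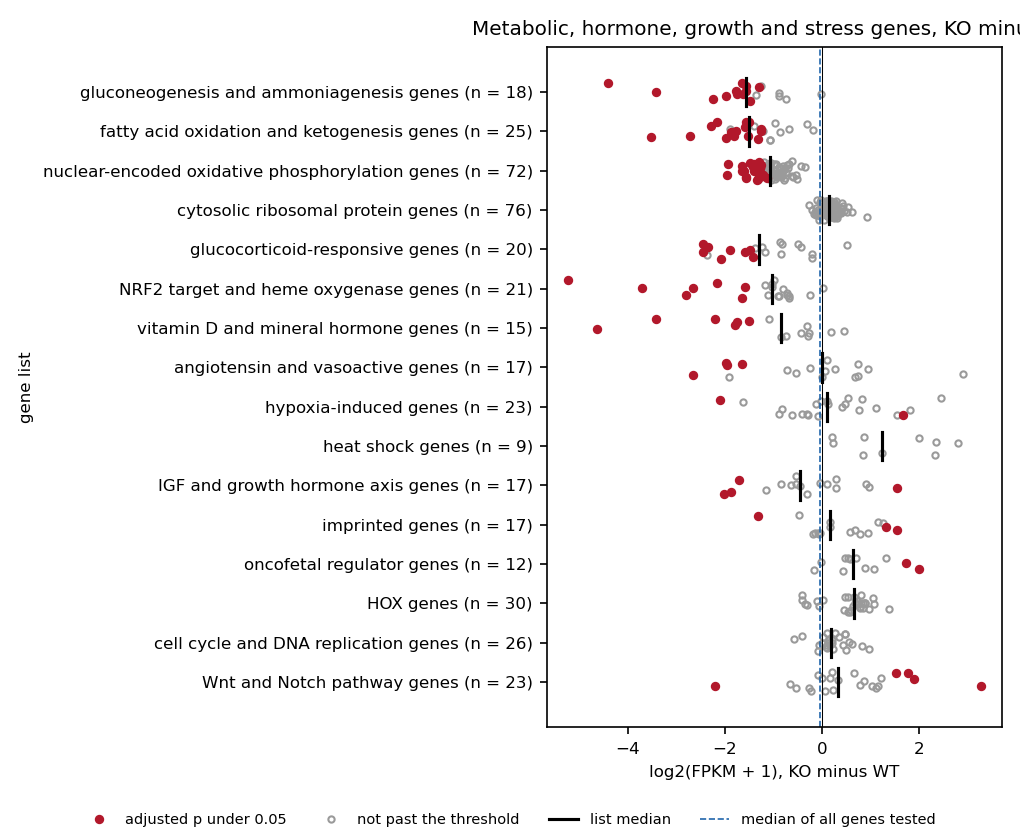
Log2 change, KO minus WT, of each tested gene in 16 metabolic, hormone, growth and stress lists, with called genes filled and the list median as a bar. Fatty acid oxidation and oxidative phosphorylation genes all lie below 0, with medians of -1.51 and -1.07, while ribosomal genes have a median of 0.14.

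Of 20 glucocorticoid-responsive genes 8 were lower and 0 higher (median -1.31). KLF9, a transcription factor induced by cortisol, was at 6.73 FPKM in KO2 and 10.2 FPKM in KO3, against 50.4 in WT2 and 49.9 in WT3 (log2 change -2.46, SE 0.30, adjusted p = 0.0041). PDK4, a kinase that limits pyruvate oxidation, was at 7.25 FPKM in KO2 and 7.11 FPKM in KO3, against 36.7 in WT2 and 45.2 in WT3 (log2 change -2.35, SE 0.28, adjusted p = 0.0038), and FAM107A, an actin-binding stress gene, at 4.10 FPKM in KO2 and 8.66 FPKM in KO3, against 34.1 in WT2 and 23.9 in WT3 (log2 change -2.08, SE 0.37, adjusted p = 0.017). SGK1 belongs here too and held 11.6 and 10.5 FPKM in the KO2 libraries and 13.6 and 13.7 in the KO3 libraries, against 109 and 106 in the WT2 libraries and 47.7 and 48.7 in the WT3 libraries. Glucocorticoid genes called lower numbered 7 without KO2, 14 without KO3, 2 without WT2 and 3 without WT3, and 1 in 1 fit of all 7 newborn tissues. The calls of SGK1 and FAM107A ended without WT2, and that of FAM107A also without WT3. Calls also ended for PDK4, SGK1 and FAM107A in 1 fit of all 7 newborn tissues (adjusted p = 0.057 to 0.18).

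Of 21 NRF2 target and heme oxygenase genes 7 were lower and 0 higher (median -1.03). NRF2 is the transcription factor that turns on genes against oxidants. Beside HMOX1, the quinone reductase NQO1 held 4.29 and 4.83 FPKM in the KO2 libraries and 2.01 and 2.48 in the KO3 libraries, against 37.6 and 39.1 in the WT2 libraries and 78.04 and 75.1 in the WT3 libraries (log2 change -3.70, SE 0.41, adjusted p = 0.0027). The epoxide hydrolase EPHX1 was at 24.3 FPKM in KO2 and 22.5 FPKM in KO3, against 93.8 in WT2 and 125 in WT3 (log2 change -2.16, SE 0.28, adjusted p = 0.0055), and sulfiredoxin SRXN1 at 2.01 FPKM in KO2 and 1.90 FPKM in KO3, against 31.2 in WT2 and 9.81 in WT3 (log2 change -2.66, SE 0.48, adjusted p = 0.017), with WT2 above WT3. NRF2 target genes called lower numbered 9 without KO2, 9 without KO3, 3 without WT2 and 4 without WT3. Leaving out single animals ended the calls of SRXN1 without WT2 (0.098) and EPHX1 without WT3 (0.054).

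Of 14 tubular injury genes 1 was higher and 3 were lower. The injury marker HAVCR1 (KIM-1) was at 1.38 FPKM in KO2 and 1.07 FPKM in KO3, against 6.91 in WT2 and 8.92 in WT3 (log2 change -1.996, SE 0.32, adjusted p = 0.012), lipocalin LCN2 at 1.03 FPKM in KO2 and 0.355 FPKM in KO3, against 4.13 in WT2 and 3.19 in WT3 (log2 change -1.48, SE 0.36, adjusted p = 0.048) and osteopontin SPP1 at 31.6 FPKM in KO2 and 7.29 FPKM in KO3, against 74.5 in WT2 and 197 in WT3 (log2 change -2.90, SE 0.63, adjusted p = 0.034). Vimentin (VIM), a filament of mesenchymal cells and podocytes, was the gene that rose, at 321 FPKM in KO2 and 412 FPKM in KO3, against 172 in WT2 and 131 in WT3 (log2 change 1.27, SE 0.31, adjusted p = 0.048). The number called lower was 6 without KO2, 2 without KO3, 1 without WT2 and 0 without WT3, and higher 1 without KO2, 3 without KO3, 0 without WT2 and 0 without WT3. After quantile normalisation, in 1 fit of all 7 newborn tissues or with a mean of 5 FPKM or more the number lower was 1. The calls that ended when 1 animal was left out, with the adjusted p then reached, were LCN2 without KO3 (0.08). The same held for HAVCR1, LCN2 and VIM without WT2 (0.064 to 0.29) and HAVCR1, SPP1, LCN2 and VIM without WT3 (0.1 to 0.38). Other settings ended the calls of LCN2 and VIM without KO2 library 2 or without KO3 library 2 (0.051 to 0.055), LCN2 without WT2 library 2, without WT3 library 1 or with a pseudocount of 0.1 (0.051 to 0.063), VIM without WT3 library 2 or with eBayes without trend (0.051 to 0.057), SPP1 and LCN2 after quantile normalisation (0.06 to 0.088), and SPP1, LCN2 and VIM in 1 fit of all 7 newborn tissues (0.12 to 0.31).

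Blood and immune genes were compared as markers of other cells. Erythroid genes summed to 112 to 231 FPKM in the KO libraries, against 1378 to 1577 FPKM in the WT libraries, a difference carried by HBB, and 1 of 11 was higher and 1 lower. HBZ, the embryonic zeta globin, was the gene that rose and held 14.9 and 17.6 FPKM in the KO2 libraries and 5.61 and 5.03 in the KO3 libraries, against 2.39 and 1.06 in the WT2 libraries and 0.840 and 2.002 in the WT3 libraries (log2 change 2.06, SE 0.46, adjusted p = 0.037). Macrophage genes summed to 80.6 and 72.99 FPKM in KO2 and 231 and 226 FPKM in KO3, against 211 to 224 FPKM in WT. KO2 alone was low. Of 16 such genes 1 was lower, where 4.76% of all genes were. This was the lysosomal CD68, at 3.79 FPKM in KO2 and 5.38 FPKM in KO3, against 14.9 in WT2 and 15.5 in WT3 (log2 change -1.55, SE 0.30, adjusted p = 0.022). Of 16 interferon-stimulated genes 1 was lower too, a share close to that of all genes. This was IFI27, at 9.62 FPKM in KO2 and 10.9 FPKM in KO3, against 34.4 in WT2 and 113 in WT3 (log2 change -2.50, SE 0.48, adjusted p = 0.021). BST2, an interferon-induced gene outside that list, was higher as given above. With 1 animal left out, the adjusted p passed 0.05 for HBZ without KO2 (0.075). It also passed for CD68 and HBZ without WT2 (0.15) and IFI27, CD68 and HBZ without WT3 (0.096 to 0.15). The adjusted p also passed 0.05 for HBZ without WT2 library 2, after quantile normalisation or with libraries correlated within an animal (0.054 to 0.15), and IFI27, CD68 and HBZ in 1 fit of all 7 newborn tissues (0.066 to 0.45).

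Hepatocyte genes summed to 34.5 to 85.9 FPKM in the KO libraries, against 155 to 226 FPKM in the WT libraries, and 1 of 9 was lower. This was APOA1, the main protein of high-density lipoprotein, at 17.99 FPKM in KO2 and 9.57 FPKM in KO3, against 138 in WT2 and 125 in WT3 (log2 change -3.22, SE 0.33, adjusted p = 0.0023). Of 13 acute phase genes 4 were lower, among them LCN2, given above, the protease inhibitor SERPINA3 at 2.997 FPKM in KO2 and 0.867 FPKM in KO3, against 13.6 in WT2 and 19.4 in WT3 (log2 change -2.66, SE 0.41, adjusted p = 0.01), and the secreted glycoprotein AZGP1 at 1.33 FPKM in KO2 and 1.55 FPKM in KO3, against 12.3 in WT2 and 6.08 in WT3 (log2 change -2.003, SE 0.38, adjusted p = 0.019). C-reactive protein (CRP) held 0.234 and 0.172 FPKM in the KO2 libraries and 0 and 0 in the KO3 libraries, against 2.35 and 2.39 in the WT2 libraries and 2.34 and 1.99 in the WT3 libraries and was also lower (adjusted p = 0.032), with KO3 listed at 0. The acute phase count was 5 without KO2, 3 without KO3, 2 without WT2 and 1 without WT3, and 2 with a pseudocount of 0.1 or, over 6 genes, with a mean of 5 FPKM or more. CRP fell under the level filter without WT2 or WT3 and was not tested then. Of 6 adipocyte genes 1, the lipase LPL, changed by -1.23 (adjusted p = 0.046). Of 4 skeletal muscle genes 1, the creatine kinase CKM, was lower, at 0.970 FPKM in KO2 and 0.752 FPKM in KO3, against 9.66 in WT2 and 14.7 in WT3 (log2 change -2.81, SE 0.34, adjusted p = 0.0038). Neutrophil, lymphocyte and adrenal genes had 0 of 6, 0 of 2 and 0 of 3 called by limma, with 0, 1 and 0 at an unadjusted p under 0.05. In each of the hepatocyte, adrenal and adipocyte lists 1 gene was listed at 0 in every kidney library, namely TF, CYP11B2 and LEP. The other members found were above 0 in at least 1 library. Adipocyte genes summed to 35.2 to 40.3 FPKM in the KO libraries, against 46.2 to 72.7 FPKM in the WT libraries. The part of other cells or of blood in the kidney result was not tested. The call of LPL ended without KO2, those of AZGP1 and LPL without WT2, and those of SERPINA3 and LPL without WT3. Brackets give the adjusted p reached in other settings. Calls also ended for LPL without KO2 library 2, without WT2 library 1, without WT3 library 2, after quantile normalisation, in 1 fit of all 7 newborn tissues or with eBayes without trend (0.051 to 0.24), and CRP with a pseudocount of 0.1 (0.052).

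Stress lists held at most 1 call in either direction, where 1.02% of all genes were called higher and 4.76% lower. Of 23 hypoxia-induced genes 1 was higher, the collagen prolyl hydroxylase P4HA1 at 89.3 FPKM in KO2 and 50.3 FPKM in KO3, against 24.5 in WT2 and 17.1 in WT3 (log2 change 1.66, SE 0.35, adjusted p = 0.029), and 1 lower, the mitochondrial adenylate kinase AK4 at 8.77 FPKM in KO2 and 12.04 FPKM in KO3, against 55.8 in WT2 and 40.04 in WT3 (log2 change -2.10, SE 0.31, adjusted p = 0.0084). The mean changes in the other 6 tissues were 1.94 for P4HA1 and 0.62 for AK4. The hypoxia list's median was -0.28 in KO2 and 0.76 in KO3, and 3 of its genes were higher after quantile normalisation. None of 9 heat shock genes was called (1 at an unadjusted p under 0.05), and the list median was 2.70 in KO2 and -0.62 in KO3. The chaperone HSPB1 held 7872 and 8223 FPKM in the KO2 libraries and 159 and 153 in the KO3 libraries, against 119.7 and 117 in the WT2 libraries and 217 and 222 in the WT3 libraries (log2 change 2.79, SE 1.40, adjusted p = 0.29). HSP90AA1 held 3815 and 3929.9 FPKM in the KO2 libraries and 119.9 and 124 in the KO3 libraries, against 115 and 114 in the WT2 libraries and 157 and 161 in the WT3 libraries (log2 change 2.34, SE 1.22, adjusted p = 0.31). HSP90AB1 was at 1203 FPKM in KO2 and 369 FPKM in KO3, against 134 in WT2 and 210.4 in WT3 (log2 change 1.98, SE 0.52, adjusted p = 0.061). For this gene KO3 was above both WT animals too. Without KO2 the log2 changes of HSPB1 and HSP90AA1 were -0.047 and -0.15. With both KO animals, the mean changes of HSPB1, HSP90AA1 and HSP90AB1 in the other 6 tissues were 3.60, 2.52 and 1.82. Of 15 integrated stress response genes and 10 NF-kB genes, 1 each was called, lower in both lists. These were the leucine sensor SESN2, at -1.40 (adjusted p = 0.028), and IER3, at -1.12 (adjusted p = 0.049). Immediate early and cystic kidney genes had 0 of 13 and 0 of 18 called, with 4 and 3 at an unadjusted p under 0.05. Leaving out single animals ended the calls of P4HA1 and IER3 without KO2 (0.062 to 0.071). Among WT animals this was so for AK4, SESN2, P4HA1 and IER3 without WT2 (0.081 to 0.34) and SESN2, P4HA1 and IER3 without WT3 (0.11 to 0.2). Beyond single animals, calls ended for IER3 without KO2 library 2, without KO3 library 2, without WT2 library 1, without WT3 library 2, with a pseudocount of 0.1 or with eBayes without trend (0.052 to 0.068), SESN2 and IER3 after quantile normalisation (0.069 to 0.11), and SESN2, P4HA1 and IER3 in 1 fit of all 7 newborn tissues (0.14 to 0.53).

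The KO change in kidney was set against the mean KO change in the brain, muscle, thymus, liver, heart and lung of the same 4 animals. The test is of the difference itself, each animal's kidney value minus its mean over the other 6 tissues. It called 543 genes, 3.9% of those tested. In 406 (2.91%) the change was more negative in kidney and in 137 (0.983%) more positive. Of the 806 genes called in kidney, 381 were also called in the difference with the same sign, 328 lower and 53 higher. With animals left out the more positive and more negative counts were 281 and 333 without KO2, 567 and 869 without KO3, 13 and 170 without WT2, and 19 and 159 without WT3. A pseudocount of 0.1 gave 11 and 48, quantile normalisation 89 and 261, and no filter on level 0 and 0, with 4550 genes at an unadjusted p under 0.05.

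**Figure D5:**
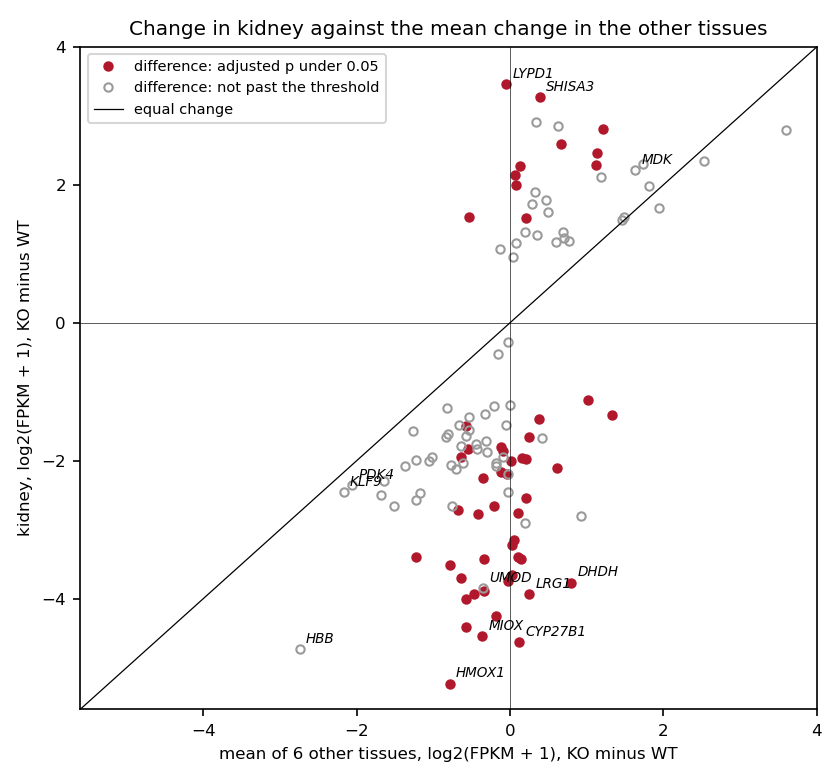
Log2 change in kidney against the mean log2 change in the other 6 newborn tissues, KO minus WT, for the genes named in the text, with those called in the difference filled. CYP27B1, MIOX, DHDH and LRG1 lie far below the line of equal change, while HBB, KLF9 and PDK4 have negative values in the other tissues as well.

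The most negative differences named were of LRG1 and of enzymes. LRG1 differed by -4.18 (adjusted p = 0.0048), CYP27B1 by -4.75 (adjusted p = 0.0083), DHDH by -4.56 (adjusted p = 0.017), HMOX1 by -4.45 (adjusted p = 0.013), MIOX by -4.18 (adjusted p = 0.018) and AGXT by -4.06 (adjusted p = 0.015). Their mean log2 changes in the other tissues were 0.25, 0.12, 0.80, -0.78, -0.36 and -0.18. In liver alone they were -0.67, -0.52, 2.35, -1.65, -2.60 and -1.41. Tissue-restricted genes have little RNA elsewhere, and a change there is then bounded by the pseudocount. Positive differences included LYPD1 at 3.52 (adjusted p = 0.044), SHISA3 at 2.89 (adjusted p = 0.026) and SOST at 2.07 (adjusted p = 0.032). CYP1B1, a cytochrome that metabolises estrogens, differed by 2.07 (adjusted p = 0.031) but was not called in kidney itself (log2 change 1.53, SE 0.40, adjusted p = 0.06). DLK1 fell in kidney while its mean in the other tissues was 1.33, a difference of -2.66 (adjusted p = 0.035). Among the genes in this paragraph the call of a difference ended, with the adjusted p then reached, for DLK1 without KO2 (0.071), LYPD1, SHISA3 and CYP1B1 without WT2 (0.058 to 0.094), LYPD1, SOST and DLK1 without WT3 (0.087 to 0.11), MIOX, AGXT, LYPD1, SHISA3, SOST, CYP1B1 and DLK1 with a pseudocount of 0.1 (0.053 to 0.1), and LYPD1 and DLK1 after quantile normalisation (0.06 to 0.064).

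By list, the difference was more negative in 19 of 42 proximal tubule transporters, 15 of 36 proximal tubule enzymes, 7 of 18 gluconeogenesis genes, 6 of 21 NRF2 target genes, 5 of 25 fatty acid oxidation genes and 8 of 72 oxidative phosphorylation genes, where it was in 2.91% of all genes. For the last the median change was -1.07 in kidney and -0.35 in the other tissues. Glucocorticoid-responsive genes had 0 of 20 called in the difference by limma (6 at an unadjusted p under 0.05), with a median change of -1.31 in kidney and -0.82 in the other tissues. KLF9 and PDK4 differed by -0.29 (adjusted p = 0.43) and -0.30 (adjusted p = 0.62), and IGF2 and HBB by 0.05 (adjusted p = 0.93) and -1.99 (adjusted p = 0.19), none of them past the threshold. UMOD differed by -3.50 (adjusted p = 0.0502) and so missed the threshold narrowly. A p that misses the threshold does not show that the change was equal in kidney and elsewhere.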

How the data were processed

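RNA from 8 newborn kidney samples was compared, 4 libraries from SIRT6 mutant animals KO2 and KO3 and 4 from wild-type animals WT2 and WT3. The values are gene-level FPKM that the authors deposited, already scaled for gene length and mapped fragments. CASAVA, Cufflinks 2.0.2 and HISAT 0.1.6 are the tools listed in the submitters' processing notes, without the step each served. The sources used here give no genome build, annotation or strand setting. FPKM keep no read total, so depth is unknown, no count test was run and no counting interval is given. Whether libraries 1 and 2 of an animal came from separate extractions is not stated, so they were averaged on log2(FPKM + 1), leaving 2 animals against 2. Antisense and overlapping genes and near-identical copies may share fragments.

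Genes with a mean of 1 FPKM or more over the 8 libraries were fitted with limma 3.58.1 (eBayes with trend) in R 4.3.3, with Benjamini-Hochberg adjustment over 13937 genes. The difference from other tissues was the same fit on each animal's kidney value minus its mean over 6 tissues. Alternatives changed the pseudocount, filter, scaling, replicate unit, fit and libraries used. Of 11294 genes listed under a LOC identifier, 721 took a symbol from NCBI's RefSeq table of the telomere-to-telomere assembly MFA8v1.1, used for names only.

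Members and lists were chosen with earlier results of these data known. Genes named are SIRT6, the 12 highest and 12 lowest changes among called genes with a symbol, at least 5 FPKM in the higher group and no overlap of libraries, the 4 smallest p-values of each list, and the 6 largest differences from other tissues in each direction. NOTUM, SLC12A1, EPO, WT1, PCK1 and LRP2 were named outside this rule after their values were seen. The lists hold 1011 entries, of which 962 of 981 distinct symbols were found. A planned description of promoter letters was not made, since no sequence table was used here. Fetal libraries of the series were not used. Some genes that the rule picks are not reported here.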

Additional observations from a re-analysis of the deposited data

Results flagged for a closer look

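Of the genes named above, 52 changed differently in kidney than in the mean of the other 6 newborn tissues of the same 4 animals, by limma's test of the difference itself (adjusted p = 0.0048 to 0.0499). Values are the log2 change, KO minus WT, in kidney minus that in the other tissues, with a negative one where the change was more negative in kidney. Among proximal tubule and related enzymes the differences were CYP27B1 (-4.75), MIOX (-4.18), AGXT (-4.06), DHDH (-4.56), UGT3A1 (-3.43), HPD (-3.47), DDC (-3.54), ASS1 (-2.35), UPB1 (-2.87), G6PC (-3.84), PCK2 (-3.09), PC (-1.89) and FBP1 (-1.90). For fatty acid, mitochondrial and oxidant-response genes they were HMOX1 (-4.45), NQO1 (-3.06), EPHX1 (-2.05), ACSL1 (-2.73), EHHADH (-2.04), ACAA2 (-1.27), COX8A (-1.30), AK4 (-2.71), ESRRA (-0.933) and ESRRB (-1.69). The transporters differed as follows, SLC5A12 (-3.67), SLC13A3 (-3.21), SLC7A8 (-2.17), SLC6A18 (-3.71), SLC34A3 (-3.56), SLC12A3 (-2.75), SLC26A7 (-1.76) and SLC26A4 (-2.12). Of the hormone, secreted and surface proteins, the values were LRG1 (-4.18), EGF (-3.50), AGT (-2.46), KLK1 (-2.18), APOA1 (-3.25), DLK1 (-2.66), SFRP2 (-2.15) and HAVCR1 (-2.01). For stress genes they came to SESN2 (-1.78) and IER3 (-2.13). The change was more positive in kidney for LYPD1 (3.52), SHISA3 (2.89), SAMD11 (1.60), B4GALNT4 (1.93), SULT1E1 (1.34), BST2 (1.17), DAPL1 (2.14), SOST (2.07), CLDN6 (1.92), LFNG (1.31) and CYP1B1 (2.07). With animals left out, 39 of the 52 were called without KO2, 50 without KO3, 30 without WT2 and 27 without WT3. A pseudocount of 0.1 left 12 called and quantile normalisation within each tissue 39. Where a gene holds little RNA outside kidney, the pseudocount bounds its change there. A mean of 6 tissues can also hide 1 that changed like kidney. In liver UGT3A1 changed by -3.43, G6PC by -3.16, MIOX by -2.60, ASS1 by -2.52, HPD by -2.47, SLC7A8 by -2.36 and ACAA2 by -2.13. SLC7A8 also changed by -2.14 in muscle and -1.96 in lung, and HMOX1 by -2.09 in muscle and -2.06 in lung. SAMD11 changed by 2.85 in lung and SULT1E1 by 2.26 in heart, against 2.81 and 2.47 in kidney. Liver went the other way from kidney for DHDH (2.35), DLK1 (2.46) and IER3 (1.75), among others.

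In a pair of genes 1 library lay apart from the other 3 of its genotype by Dixon's criterion for 4 samples. For IFI27 the KO libraries held 8.24 and 11.01 FPKM in KO2 and 11.2 and 10.7 in KO3, with a gap of 0.843 of their range below the others. For CRP the WT libraries held 2.35 and 2.39 FPKM in WT2 and 2.34 and 1.99 in WT3, with a gap of 0.882. Chance flags about 1 in 20 groups, and repeat libraries share an animal.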

How the results depend on the processing

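The count of genes called higher was 142 and of genes called lower 664. Leaving out 1 animal or 1 library gave 13 to 300 higher and 165 to 1321 lower. In the difference from other tissues the more positive calls ran from 13 to 567 and the more negative from 159 to 869 with 1 animal left out. A lone animal in a genotype is assumed to vary like the other pair. With no filter on level limma called 0 higher and 0 lower in kidney (3656 at an unadjusted p under 0.05), and 0 and 0 in the difference (4550 at an unadjusted p under 0.05). Quantile normalisation gave 247 higher in kidney, and 89 and 261 in the difference. A pseudocount of 0.1 gave 11 and 48 in the difference. Libraries taken as replicates gave 2055 higher and 3064 lower, libraries correlated within an animal 400 and 1166, and 1 fit of all 7 newborn tissues 222 higher. For each of these the cause was not tested. Of the 806 genes called, 749 were called with a pseudocount of 0.1, 637 after quantile normalisation, 589 in the fit of all tissues, 584 without KO2, 750 without KO3, 167 without WT2 and 166 without WT3. Of 107 called genes named above, 100 were called with a pseudocount of 0.1, 93 with a mean of 5 FPKM or more, 93 after quantile normalisation, 78 in the fit of all tissues, 92 without KO2, 103 without KO3, 47 without WT2, 47 without WT3 and 0 with no filter on level. With 1 animal or library left out, the log2 change ran from -0.98 to 0.065 for SIRT6, from -0.047 to 5.63 for HSPB1 and from -0.15 to 4.83 for HSP90AA1, each past 0 only without KO2. It ran from -0.69 to 0.14 for LRP2, turning without WT3, and was at 0.079 after quantile normalisation. Animal numbers share only a number, as deviations of KO2 correlated at -0.034 with WT2 and 0.034 with WT3 across genes. With that number as a replicate block 148 genes were higher and 678 lower, and 194 and 590 in the difference. The block ended the calls of MYH11, TAGLN, VIM, IGF2, DLK1 and IER3 (adjusted p = 0.054 to 0.11) and of the difference of ESRRA (0.054), left 1 smooth muscle gene lower, and gave 5 injury genes lower and 3 hypoxia genes higher. List medians of vasoactive, injury and erythroid genes changed sign under quantile normalisation. FPKM give no depth, which limits what low genes such as SLC26A4, KLK1 or CRP can show.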

Other observations

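Gene families were counted by the start of the symbol, a grouping chosen after values were seen and given without a test. Solute carriers (SLC) were the largest family among those fallen, with 67 of 245 tested called lower and 2 higher and a median log2 change of -0.58. That is 27.3% lower, where 4.76% of all genes tested were. Glucuronosyl and related transferases (UGT), which conjugate drugs and steroids, had 4 of 7 lower and 0 higher (median -2.35), cytochromes P450 (CYP) 8 of 26 lower and 0 higher (median -0.71), and aldehyde dehydrogenases (ALDH) 6 of 16 lower and 0 higher (median -1.01). Potassium channel genes (KCN) had 5 of 38 lower. These families overlap the tubule lists described above.

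Zinc finger genes with symbols starting ZNF had 0 calls by limma among 350 tested (29 at an unadjusted p under 0.05), and 269 had an estimate above 0 (median 0.23), against 6517 of all 13937 genes. SOX genes had 0 calls among 11 (3 at an unadjusted p under 0.05, median 0.52). Of 33 collagens 1 was higher and 0 lower (median 0.38), and of 18 protocadherins (PCDH), cell adhesion proteins related to cadherins, 3 were higher and 0 lower (median 0.50). Genes left with only a LOC identifier after symbols were matched made up 31 of the 142 called higher and 56 of the 664 called lower, and are not named here.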
